A study of Mus musculus with 2 samples.

Results

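Natural killer (NK) cells without a T cell receptor were picked from the cells of subcutaneous mouse tumours, and 114 of 16175 kept cells met the rule: 101 of 7913 in the library from animals fed a diet without serine and glycine, and 13 of 8262 in the library from animals on the control diet. A cell was kept if it had at least 300 genes and at most 20% of its UMIs (unique molecular identifiers, each counted as 1 captured RNA molecule) on mitochondrial genes. A kept cell was a member if it had at least 1 UMI of Ncr1 or Klrb1c, no UMI of Cd3d, Cd3e or Cd3g, no assembled T cell receptor contig in the same sample, no Krt20 UMI, and C1qa, C1qb and C1qc together under 0.1% of its UMIs. The study set tumours of mice on a diet free of serine and glycine beside tumours of mice on a control diet, with 1 gene expression library and 1 T cell receptor library for each, both made with the 10x Genomics assay. The labels give no strain, age, tumour line, time on the diet or number of animals per library. With 1 library for each diet no test between diets exists, and every interval here is an exact 95% interval that covers counting error only (Poisson for a summed level, Clopper-Pearson for a share, conditional binomial for a ratio). Where a count is 0, the limit given is instead the value that 3 counts would have.

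NK cells are innate lymphocytes that kill stressed or transformed cells without rearranging an antigen receptor. They weigh signals from activating receptors, which act through the adaptors DAP12 (Tyrobp), FcεRIγ (Fcer1g) and DAP10 (Hcst), against signals from inhibitory receptors of the Ly49 and CD94/NKG2A families that bind MHC class I. A triggered NK cell releases perforin, which opens the target membrane, and granzymes, proteases that start death inside the target, and it secretes interferon-γ and chemokines that draw in dendritic cells and T cells.

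The values that chose the cells are given as a description. In the serine/glycine-free library 95 of the 101 NK cells had Ncr1 (NKp46, an activating receptor), 21 had Klrb1c (NK1.1), 15 had both and 6 had Klrb1c alone. Their summed Ncr1 and Klrb1c count had a median of 6 UMIs and reached 33, and 10 cells entered with exactly 1 UMI and 17 with 2. In the control library 10 of 13 had Ncr1, 4 had Klrb1c and 3 entered with exactly 1 UMI. At the C1q limit, the highest NK cell inside was at 0.0629% and the 4 serine/glycine-free cells outside lay between 0.398% and 2.32%. The Krt20 criterion left out 21 of 126 serine/glycine-free cells and 3 of 17 control cells, with a median of 3 and 4 Krt20 UMIs. Ncr1 or Klrb1c had a UMI in 3 of 564 serine/glycine-free macrophages (C1q genes at least 0.5% of UMIs) and in 4 of 4613 cells with Krt20 and without Ptprc.

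Among genes the rule did not use, the share of serine/glycine-free members with a UMI differed by NK gene. The lineage factors Eomes and Tbx21, given below, were in fewer cells than any gene listed next. Tyrobp had a UMI in 100 of 101 cells, Fcer1g in 97, Nkg7 (a granule membrane protein) in 93, Il2rb (the β chain of the IL-2 and IL-15 receptor) in 91, Klrk1 (NKG2D) in 89, Klrd1 (CD94) in 87, Gzmb in 85, Prf1 in 80 and Klre1 in 60. Of 10 such further NK genes, 95 of 101 serine/glycine-free cells and 10 of 13 control cells had at least 3. The median cell had 9 of them in each library. T cell genes were at 0 UMIs for Cd4, Cd8a, Cd8b1, Cd5, Cd6 and Bcl11b in the NK cells of both libraries. Of the 16 genes of the T cell list, 7 and 6 had UMIs in serine/glycine-free and control NK cells, in 88 of 101 and 10 of 13 cells. Those detected were Cd247, Cd28, Thy1, Trac, Trbc1 and Trbc2, and Lat in the serine/glycine-free cells only. Of 9 genes known from type 2 and type 3 innate lymphoid cells, 4 and 3 had UMIs in the serine/glycine-free and control NK cells, Gata3 and Kit among them, in 34 of 101 and 8 of 13 cells. Il5, Il13, Il22 and Il23r were at 0 in both. Transcripts of T cell receptor constant regions were still counted: Trac, Trbc1 or Trbc2 had a UMI in 63 serine/glycine-free cells and Trdc in 29.

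Markers of other cell types were also counted. A UMI of the macrophage and monocyte list was in 91 of 101 serine/glycine-free and 12 of 13 control NK cells, of the dendritic cell list in 35 and 10, and of the tumour and stroma list in 43 and 10. The macrophage and monocyte list summed to 1893 CPM (summed UMIs scaled to the same total in each group) in serine/glycine-free NK cells and 923 in control NK cells, with 14 and 9 of 14 genes detected. Most of the serine/glycine-free sum was Ly6c2, which is also on the list of mature circulating NK genes. It was at 1199 and 1013 CPM in the cells with and without Gzmc to Gzmg RNA that are divided below. Lyz2 was at 254 CPM, in 12 cells. The dendritic cell list summed to 5967 and 4423, with 9 and 7 of 10 genes detected, and the tumour and stroma list to 376 and 625. Most of the dendritic sum was antigen presentation RNA, from Cd74 (the invariant chain) and the class II chains H2-Eb1, H2-Ab1 and H2-Aa, of which 3 serine/glycine-free cells held 69.9% and 1 control cell held 71.3%. A UMI of at least 1 of Lyz2, H2-Aa, H2-Eb1, Mmp3, Lum, Col1a2 and Col3a1 was present in 23 of 101 and 7 of 13 NK cells. The B cell list, nearly all of it Ighm, had a UMI in 31 and 2 cells, the neutrophil list in 4 and 2, and the mast cell and basophil list in 2 and 3. Cd79a, Ms4a1, S100a9, Fcer1a and Siglech were at 0 in both libraries.

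The libraries held 8466 (control) and 7999 (serine/glycine-free) barcodes with 161332426 and 157234945 UMIs. They shared 104 barcodes, and no NK cell carried a shared one. The 101 serine/glycine-free NK cells held 790382 UMIs, with a median of 5374 per cell (range 1203 to 37020). The 13 control NK cells held 217743 UMIs, with a median of 10132 (lowest 4691), and the deepest cell held 51480 of them.

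NK cells were more frequent in the serine/glycine-free library. They made up 1.28% of kept cells (1.04 to 1.55) against 0.157% (0.0838 to 0.269), a ratio of 8.11 (4.54 to 15.8). Among kept cells with a Ptprc (CD45) UMI they made up 8.31% (6.81 to 10.03) of 1191 cells against 1.03% (0.532 to 1.79) of 1167, a ratio of 8.08 (4.43 to 16.2). Cells with an NK receptor that were left out for a Cd3 UMI or a contig made up 0.442% and 0.182%, a ratio of 2.44 (1.30 to 4.80). Whether these shares vary between animals of the same diet cannot be told from 1 library each.

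**Figure D1:**
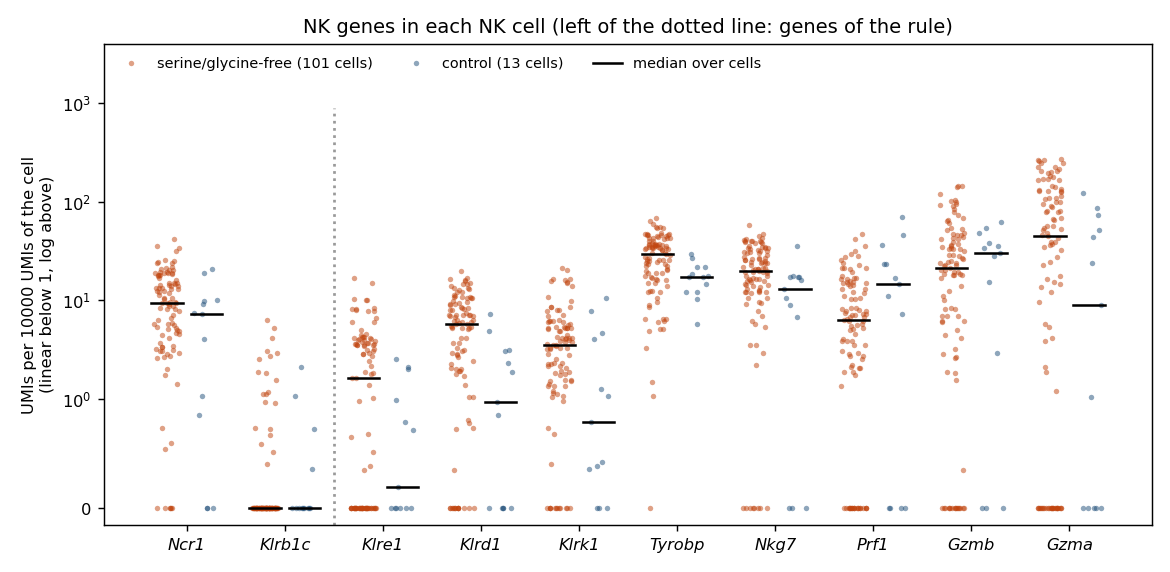
UMIs per 10000 UMIs of the cell (linear below 1, log above) for 10 genes in each serine/glycine-free NK cell (orange, 101 cells) and control NK cell (blue, 13 cells), with black bars at the medians; Ncr1 and Klrb1c, left of the dotted line, chose the cells. Tyrobp and Nkg7 lie well above 0 in almost every cell, while Gzma and Gzmb run from 0 to 271 and 144 UMIs per 10000 in the serine/glycine-free cells.

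Granzyme levels were uneven among the NK cells. Granzymes A and B, the principal tryptase and the caspase-activating protease of killer granules, were in most of the serine/glycine-free cells: Gzma in 75 of 101, with a median of 45.2 UMIs per 10000 UMIs of the cell and a highest value of 271, and Gzmb in 85, with a median of 21.2 and a highest value of 144. Thinned to 1000 UMIs per cell, Gzmb had a UMI in 69.3% of these NK cells (84.2% unthinned) and in 42.1% of CD8 T cells. It was in 0 of 550 macrophages, which allows a share of up to 0.545% by the limit of 3 counts. After thinning, 53 NK cells had both Gzma and Gzmb, 15 only Gzma, 17 only Gzmb and 16 neither. Perforin (Prf1) had a median of 6.39 and reached 46.7 per 10000. Gzmk, which is known from memory-like T cells, was at 13.9 CPM, and Gzmm had no UMI.

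Granzymes C to G form with Gzmb a run of related genes, chr14:56099885-56262334 in GRCm38.p6, that spans 162 kb and ends with Ctsg (cathepsin G). Gzma lies apart on chromosome 13. Because the NK cells differed so much in these genes, the 120 bases upstream of each annotated start (RefSeq, GRCm38.p6, gene strand, 5′ to 3′) are shown for the 7 granzymes detected above 100 CPM, with motif matches in capitals: a Runx core (TGTGGT), an AP-1 site (TGANTCA) and a cyclic AMP response element (TGACGTCA), each searched on both strands. The Gzmc window lies inside the annotated gene (chr14:56231397-56241647), upstream of the start that the RefSeq promoter table gives, and the first 10 bases upstream in the Gzmd window lie inside its gene as well.
Gzma (chr13:113100982-113101101, minus strand): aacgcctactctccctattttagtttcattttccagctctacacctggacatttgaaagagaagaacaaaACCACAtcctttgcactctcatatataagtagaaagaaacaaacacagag
Gzmb (chr14:56262335-56262454, minus strand): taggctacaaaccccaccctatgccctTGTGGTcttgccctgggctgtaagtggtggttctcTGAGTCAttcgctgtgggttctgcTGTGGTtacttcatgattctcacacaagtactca
Gzmc (chr14:56234658-56234777, minus strand): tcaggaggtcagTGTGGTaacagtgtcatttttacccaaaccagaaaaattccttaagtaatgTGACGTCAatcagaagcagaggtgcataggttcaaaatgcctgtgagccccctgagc
Gzmd (chr14:56132594-56132713, minus strand): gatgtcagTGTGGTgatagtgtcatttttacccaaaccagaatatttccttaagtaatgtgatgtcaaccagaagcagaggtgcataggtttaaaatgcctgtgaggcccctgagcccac
Gzme (chr14:56120626-56120745, minus strand): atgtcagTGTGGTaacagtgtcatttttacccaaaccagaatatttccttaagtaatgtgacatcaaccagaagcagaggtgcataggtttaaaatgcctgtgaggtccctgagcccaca
Gzmf (chr14:56211408-56211527, minus strand): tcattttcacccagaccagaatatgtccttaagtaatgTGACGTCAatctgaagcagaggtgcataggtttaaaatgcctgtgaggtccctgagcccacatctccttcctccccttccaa
Gzmg (chr14:56159580-56159699, minus strand): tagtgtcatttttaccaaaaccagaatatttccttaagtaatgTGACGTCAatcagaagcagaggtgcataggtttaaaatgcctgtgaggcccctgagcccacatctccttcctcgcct
The Runx core was present in 5 of the 7 windows (Gzma, Gzmb, Gzmc, Gzmd and Gzme) and in 6.72% of 32851 windows of the same length upstream of RefSeq transcripts. The AP-1 motif was in Gzmb alone of the 7 and in 3.41% of all windows. The cyclic AMP element, added to the search after these sequences were read, was in Gzmc, Gzmf and Gzmg and in 1.24% of all windows. A T-box motif (TCACACC), the kind bound by T-bet and Eomes, was in none of the 7 and in 1.49% of all. None of these motifs overlaps another in the printed windows. After global alignment the Gzmd and Gzme windows shared 95% of their bases, Gzmf and Gzmg 90%, and Gzmc shared 89.2% with Gzmd and with Gzme. Gzmb shared 51.7% to 59.2% with the others. Reads may also have been split among the transcripts of the related genes Gzmc to Gzmg. These transcripts were not compared, and neither the level of each gene nor the sum was checked for this.

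In serine/glycine-free NK cells Gzmc was at 2972 CPM (46 of 101 cells), Gzmd at 1144 (9 cells), Gzme at 452 (8 cells), Gzmf at 1648 (7 cells) and Gzmg at 746 (3 cells). Gzmc to Gzmg together were at 6962 CPM, with a UMI in 47 cells, and 9 cells held 100 or more per 10000. The sum of Gzmd to Gzmg was concentrated further: 14 cells had a UMI, 1 cell held 80.4% of them and 3 cells held 91.1%, the highest at 981 per 10000. In control NK cells Gzmc to Gzmg were at 78943 CPM, with a UMI in 8 of 13 cells and 5 cells at 100 or more per 10000. There 1 cell held 51.3%, and its level was 3181 per 10000. For Gzmd to Gzmg 3 of the 13 control cells held 99.7%. Both libraries therefore had a few NK cells with very high granzyme C to G RNA, and the levels of both groups overlapped from cell to cell.

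**Figure D2:**
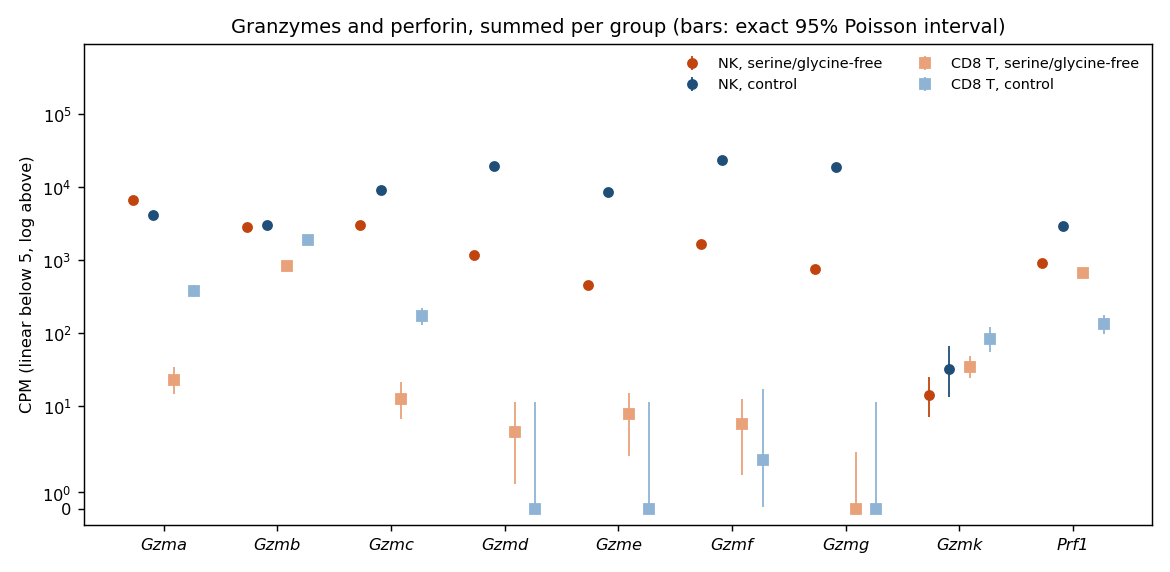
Summed level (CPM, linear below 5, log above) of 8 granzymes and perforin in NK cells (circles) and CD8 T cells (squares) of the serine/glycine-free (orange) and control (blue) libraries, with exact 95% Poisson bars. Gzmd, Gzme, Gzmf and Gzmg lie between 452 and 1648 CPM in serine/glycine-free NK cells and between 8571 and 23495 in control NK cells, against 0 to 7.58 in CD8 T cells.

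Inhibitory and activating receptors were spread over the cells. The Ly49 (Klra) genes had a UMI in 59 of 101 serine/glycine-free NK cells, with Klra3 (Ly49C) in 48 and Klra7 (Ly49G) in 18, and their sum was at 442 CPM and reached 42.3 per 10000. Klra genes also had a UMI in 340 of 564 macrophages, at 123 CPM, and in 617 of 4613 cells with Krt20 and without Ptprc, at 6.32 CPM. In macrophages Klra3 was at 2.18 CPM and Klra7 had no UMI. Klrc1 (NKG2A, the inhibitory partner of CD94) was in 72 cells, at 349 CPM. Of the NKR-P1 family other than Klrb1c, Klrb1a was in 78 cells and Klrb1f in 65, at 299 and 210.1 CPM. Klrg1, an inhibitory receptor of mature NK cells, was in 25 cells. Klra8 (Ly49H) and Klra9 had no UMI, and Klra4 (Ly49D) had 2; the mouse strain is not given, and Ly49 genes vary between strains. Klrk1 (NKG2D) had a median of 3.51 per 10000 and Klrd1 of 5.81. Fcgr3 (CD16, the receptor for antibody-coated targets) was at 93.7 CPM, Cd244a (2B4) at 113 and Tnfrsf9 (4-1BB, an activation-induced costimulatory receptor) at 409.

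Chemokine and cytokine RNA was counted in most of the cells. Ccl5 was at 1148 CPM in 75 of 101 cells, Ccl4 at 971 in 57, Xcl1 (which recruits cross-presenting dendritic cells) at 401 in 51, Tnf at 286 in 56, Ifng at 268 in 53, and Ccl3 at 97.5. Together these 6 genes had a median of 27.3 UMIs per 10000 and reached 371, and 18 cells held 100 or more. Macrophages of the library also express part of this list: after thinning Ccl4 had a UMI in 35.6% of NK cells and 65.6% of macrophages, whereas Xcl1 was in 31.7% and Ifng in 22.8% of NK cells and in 0 of 550 macrophages. The lineage factors Eomes and Tbx21 (T-bet) were in 43 and 37 cells, at 98.7 and 89.9 CPM. Irf8 was at 720.3 and Klf2, which keeps lymphocytes circulating, at 658. Genes of the mature circulating NK list lay at very different levels. Gzma, at 6542 CPM, Ly6c2, Irf8, Klf2 and Klrg1 belong to it. Of the same list, Itgam was at 17.7 CPM, S1pr5 at 6.33 and Cx3cr1 at 5.06. Of tissue-resident type 1 innate lymphoid markers, Itga1 was at 65.8, Tnfsf10 at 29.1, Cxcr6 at 21.5 and Il7r at 11.4. That list also holds Cd69, at 378 and 214 CPM in cells with and without Gzmc to Gzmg after thinning. Inpp4b, another of its genes, was at 114 and 65.2 in the same cells.

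After thinning to 1000 UMIs, 19 of the 101 serine/glycine-free cells had UMIs of both Gzmc to Gzmg and the 6 chemokine and cytokine genes, 13 only of the granzymes, 59 only of the chemokine and cytokine genes and 10 of neither. The 4 groups had median depths of 8388, 6565, 4130 and 14490 UMIs before thinning, so depth moves with this division. Gzmc and Ccl5 were found together in 7 thinned cells, Gzmc alone in 23, Ccl5 alone in 47 and neither in 24. The 32 cells with a granzyme C to G UMI after thinning held 10220.3 CPM of Gzma against 4298 in the other 69, and 4500.4 against 1749 of Gzmb, a ratio of 2.57 (2.36 to 2.81). Prf1 was at 1343 against 624, Tnfrsf9 at 638 against 269, Klrg1 at 154 against 51.0 and Thy1 at 795 against 310, in the same order. Ccl5 lay the other way, at 565 against 1504, a ratio of 0.375 (0.316 to 0.444). Ccl3 was at 33.4 against 137. The summed levels of Ifng, at 354 against 216, a ratio of 1.64 (1.24 to 2.17), and Tnf, at 378 against 230.3, a ratio of 1.64 (1.25 to 2.15), were higher. The shares of cells with a UMI were close, 17 of 32 and 36 of 69 for Ifng and 19 of 32 and 37 of 69 for Tnf. Of the Ifng in the 101 cells, 1 cell held 18.9%. Ccl4, at 1029 against 935, Xcl1, at 404 against 399, and Ncr1, at 752 against 764, lay close. MHC class II RNA lay in few cells, nearly all of it in cells without these granzymes. Cd74 was at 13.4 against 4092 CPM, with a UMI in 2 of 32 and 13 of 69 cells. As given above, 3 cells held 69.9% of the summed RNA of Cd74 and the class II chains. This division of the cells was chosen after the values were seen, and no test was made of it.

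**Figure D3:**
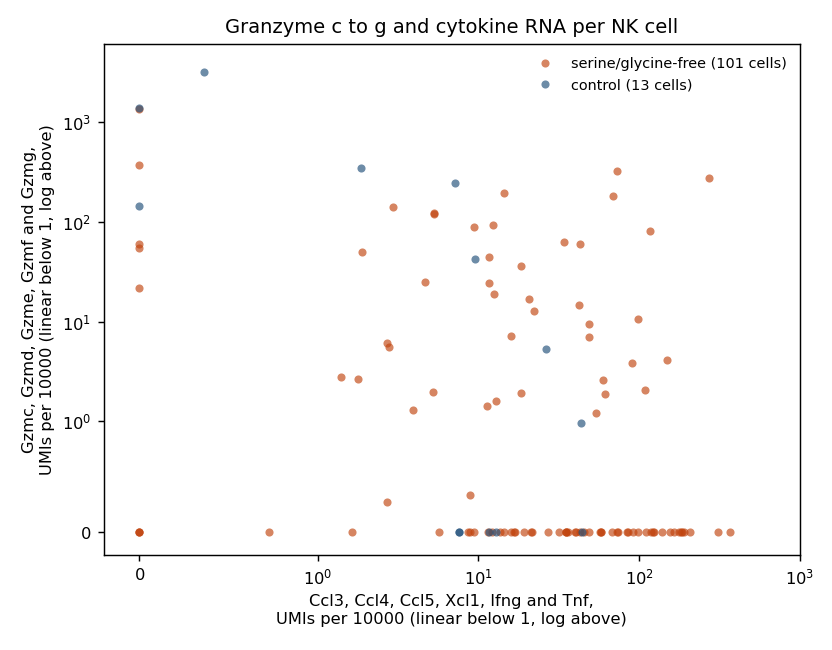
Each point is 1 NK cell (orange, 101 serine/glycine-free; blue, 13 control), with the UMIs per 10000 of 6 chemokine and cytokine genes on the x axis and of Gzmc to Gzmg on the y axis (both linear below 1, log above). Most serine/glycine-free cells lie at 0 on the y axis with up to 371 on the x axis, and the control cells with the highest granzyme values, up to 3181, lie at low x values.

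The NK cells were set beside CD8 T cells, the other killer lymphocytes of the same library. These were 135 cells with a TCR β contig, a Cd8a or Cd8b1 UMI and none of Cd4, Ncr1, Klrb1c or Krt20, with a median of 6355 UMIs, and 54 of them shared 1 TCR β CDR3. Of 5751 genes tested (a mean of at least 20 CPM over both groups), 601, or 10.5%, differed by at least 2-fold (a log2 ratio of CPM + 5 of at least 1 or at most -1), 5.89% higher in NK cells and 4.56% lower, and the median log2 ratio was -0.03. Ratios given with an interval are ratios of CPM levels, and list medians and counts past 2-fold are on the log2 scale of CPM + 5. Where a gene had no UMI in 1 group, a bound (at least N-fold) sets the level of the other group against a floor of 3 UMIs in that group; it is not the end of an exact interval.

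Each granzyme detected was higher in NK cells except Gzmk, but without cells that had a Trac, Trbc1 or Trbc2 UMI the log2 ratio turned from 6.88 to -0.96 for Gzmd and from 7.23 to 0 for Gzmg, and fell to 0.91 for Gzme. Gzma was at 6542 CPM (6365 to 6723) in NK cells and 22.7 (14.6 to 33.8) in CD8 T cells, a ratio of levels of 288 (193 to 449). Gzmb was at 2791 and 811, a ratio of 3.44 (3.18 to 3.73), and Prf1 at 896 and 646, a ratio of 1.39 (1.25 to 1.54). Gzmc was at 2972 and 12.3, and Gzmg at 746 and 0, which is at least 262-fold higher against a floor of 3 UMIs in the group; 1 NK cell held 99.7% of the Gzmg. Of 21 granule genes tested, 7 were past 2-fold higher and 1 (Gzmk) lower, with a median of 0.54. Nkg7 was lower in NK cells, at 1628 against 2161.

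The receptors and adaptors differed by family. Tyrobp was at 2272 CPM in NK cells and 19.0 in CD8 T cells, Fcer1g at 1147 and 189.5, Klrb1a at 299 and 0, Klrb1f at 210.1 and 0.948, Klra3 at 260 and 22.7, Klra7 at 161 and 0, Klrg1 at 89.9 and 0, and Fcgr3 at 93.7 and 4.74. The receptors that CD8 T cells also use were close or lower: Klrd1 at 453 and 500.3, Klrk1 at 308 and 333, and Klrc1 at 349 and 647. Of 9 inhibitory lectin-like receptors tested, 6 were past 2-fold higher and none lower, with a median of 3.25, and of 0.57 where genes of any level were included. Car2 (carbonic anhydrase 2) was at 358 and 0 CPM, in 70 of 101 NK cells and at least 126-fold higher. Eomes was at 98.7 and 3.79, while Tbx21 was at 89.9 and 151. Of 9 genes of mature circulating NK cells tested, 5 were past 2-fold higher and 1 (Cx3cr1) lower, with a median of 1.45. Of 10 genes of type 1 innate lymphoid cells and tissue residency, 4 were past 2-fold higher and 4 lower, with a median of -0.34.

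Most checkpoint genes were lower in NK cells than in the CD8 T cells of this library. The list summed to 1280 against 4116 CPM, and 100 of 101 NK cells had a UMI of it. Pdcd1 (PD-1) was at 15.2 CPM (5 of 101 cells) against 940.0 in CD8 T cells, Ctla4 at 21.5 against 328, Tox (a factor of exhausted T cells) at 41.8 against 369, Lag3 at 44.3 against 302 and Tigit at 123 against 373. Of 15 checkpoint genes tested, 9 were past 2-fold lower and 1 (Cd244a, at 113 against 20.8) higher, with a median of -1.48. Tnfrsf4 (OX40), Nrn1, Igfbp7, Slc17a6, Themis, Cd6, Ccr8 and Cd5 had no UMI in the NK cells and 100.4 to 257 CPM in the CD8 T cells. Chemokine receptors were split: Ccr2 (265 against 12.3) was higher, and Cxcr6 (21.5 against 375) was lower. Chemokine and cytokine RNA lay close, with the 6-gene sum at 3172 CPM in NK cells and 2821 in CD8 T cells.

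**Figure D4:**
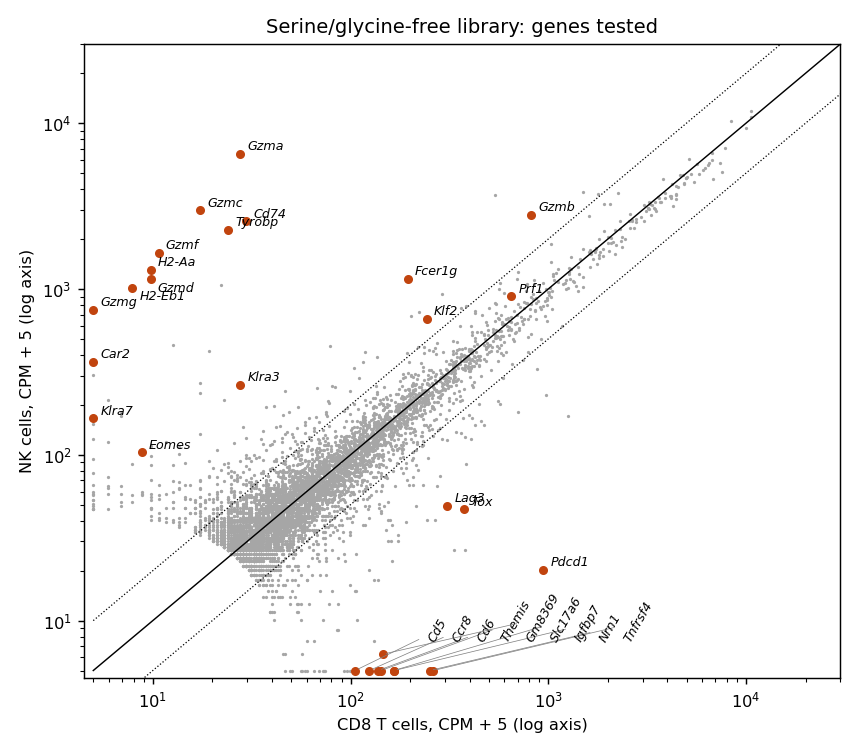
Level of each of 5751 genes (grey, CPM + 5, log axes) in serine/glycine-free CD8 T cells (x axis) and NK cells (y axis), with the line of equality (solid), the 2-fold bounds (dotted) and named genes in orange. Granzymes, Tyrobp, Klra3, Klra7 and Eomes lie far above the line, Pdcd1, Tox and Lag3 below it, and 8 named genes lie at 0 UMIs in NK cells.

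Division genes were lower in NK cells. Mki67 or Top2a had a UMI in 33 of 101 NK cells and 57 of 135 CD8 T cells, at median depths of 5374 and 6355 UMIs, and the 20 genes of the proliferation list summed to 1939 against 3975 CPM. All 20 were lower in NK cells, 9 of them past 2-fold, with a median of -0.85. Type I interferon response genes were higher, with 14 of 15 tested above the CD8 level, 7 past 2-fold, and a median of 0.95; Isg15 was at 595 against 352 CPM and Irf7 at 177 against 70.1. Serine, glycine and one-carbon genes had a median of -0.28, with 1 of 15 past 2-fold: Gldc (glycine decarboxylase) had no UMI in NK cells and was at 55.0 CPM in CD8 T cells. Phgdh, the first enzyme of serine synthesis, was at 122 against 138. Glycolysis genes had a median of -0.01 and none of 15 was past 2-fold.

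The serine/glycine-free cells with an NK receptor that the rule left out for a Cd3 UMI or a contig were 35, of which 5 had a contig. The other 30 had 74 UMIs of Cd3g, 12 of Cd3d and 3 of Cd3e, and 14 of them had exactly 1 UMI, whereas each of the 5 with a contig had at least 12. Of 5583 genes tested 7.13% differed by at least 2-fold, 4.93% higher in NK cells and 2.2% lower. Tyrobp was at 2272 CPM in NK cells and 2281 in the left-out cells, Klrb1a at 299 and 303, and Gzma at 6542 and 5919.8. No NK core gene of 17 tested was past 2-fold, with a median of -0.25. Past 2-fold lower in NK cells were 6 of 20 proliferation genes, 5 of 20 granule genes, 3 of 14 checkpoint genes and 3 of 12 inhibitory lectin-like receptors. The genes farthest apart were MHC class II and other antigen-presenting cell genes, with Cd74 at 2547 and 6.74 CPM, and, on the other side, Ctsg at 0 and 232 and Pdcd1 at 15.2 and 185. The log2 ratio of Ctsg, -5.57, went to 0 without the cell with the most granzyme C to G in each group. Gzmd to Gzmg were at 3990.1 and 19501 CPM, and 1 left-out cell held 98.3% of them; without the top cell of each group Gzme, Gzmf and Gzmg were higher in the NK cells. This comparison, the one with CD8 T cells and the one between diets share the serine/glycine-free NK cells.

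Between the diets, 5568 genes were tested in NK cells and 704, or 12.6%, differed by at least 2-fold, 8.1% higher and 4.54% lower in the serine/glycine-free library, with a median log2 ratio of 0.08. In this comparison 13 control cells set the lower depth, and a count of genes past 2-fold holds counting error as well as any difference.

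Type I interferon response genes lay higher in the serine/glycine-free NK cells. All 15 tested were higher, 10 of them past 2-fold, with a median of 1.82 (1.18 to 2.52 over 15 other settings). Isg15 was at 595 CPM (542 to 651) against 161 (112 to 224), a ratio of levels of 3.70 (2.62 to 5.38), with a UMI in 69 of 101 and 9 of 13 cells. Ifit1, an RNA-binding antiviral protein, was at 196 against 9.19, a ratio of 21.4 (5.81 to 178), Irf7 at 177 against 41.3 and Bst2 (tetherin) at 419 against 115. Rsad2 (viperin) was at 101 against 0, at least 7.35-fold higher, and 1 cell held 41.3% of it. The CD8 T cells ran the other way in the same libraries, at 352 CPM of Isg15 against 757 in the control library. In the same CD8 T cells Ifit1 was at 99.5 against 169.6 and Irf7 at 70.1 against 188. The whole list summed to 1543 against 1774 CPM in the left-out cells with an NK receptor, and to 2327 against 675 in NK cells. This difference between cell groups was not tested. Interferon-γ response genes lay closer, with a median of 0.24 and 2 of 19 past 2-fold.

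Chemokines and cytokines were also higher. Ifng was at 268 CPM (233 to 307), in 53 of 101 cells, against 9.19 (1.11 to 33.2), in 2 of 13, a ratio of 29.2 (7.99 to 243). Ccl4 was at 971 against 64.3, a ratio of 15.1 (8.94 to 27.7), Ccl5 at 1148 against 303, a ratio of 3.79 (2.95 to 4.94), and Tnf at 286 against 110.2, a ratio of 2.60 (1.70 to 4.14). Xcl1 lay close, at 401 and 377. The 6-gene sum was at 3172 against 891 CPM, and its median per cell was 27.3 against 7.59 UMIs per 10000. The highest control NK cell was at 44.4 and the highest serine/glycine-free NK cell at 371, with cells at 0 in both. The other cell groups did not share this difference. In CD8 T cells the 6-gene sum was at 2821 CPM against 4313 in the control library. The left-out cells with an NK receptor were at 2716 against 2837. The difference between cell groups was not tested. Of 7 secreted chemokines tested in NK cells, 5 were past 2-fold higher and 1 (Ccl9) lower. Their median was 1.90 (1.13 to 4.60 over the other settings). Cxcl9 was at 166 against 23.0, and 1 cell held 84.7% of it. Immediate early genes, induced within minutes of activation or tissue handling, were all 12 higher, 6 past 2-fold, with a median of 1.03: Fos was at 1444 against 409 CPM and Junb at 995 against 377. The list summed to 8192 against 3689 CPM in NK cells. CD8 T cells ran the same way, at 8014 against 5685, as did the left-out cells with an NK receptor, at 7251 against 5211. The difference between these cell groups was not tested.

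Receptor genes lay on both sides. Cd7, an early lymphoid surface protein, was at 420.3 CPM in 67 of 101 cells against 18.4 in 3 of 13, a ratio of 22.9 (8.85 to 84.4). Klrb1a was at 299 against 45.9, a ratio of 6.50 (3.47 to 13.7), Klre1 at 186 against 55.1, Klrd1 at 453 against 198 and Klrk1 at 308 against 156. Klf2 was at 658 against 322 and Tbx21 at 89.9 against 32.2, while Eomes was at 98.7 against 147 with a ratio whose interval (0.440 to 1.05) includes 1. Klrg1 lay the other way, at 89.9 against 367, a ratio of 0.245 (0.175 to 0.341), as did Tnfrsf9, at 409 against 1359.7, and Fcgr3, at 93.7 against 229.7. Without the tenth of cells with the most UMIs the log2 ratios of Klrg1 and Tnfrsf9 went from -1.97 and -1.72 to -0.68 and -0.59, which is no longer past 2-fold. The inhibitory lectin-like list had 3 of 10 tested past 2-fold higher and 2 lower, with a median of 0.80, and the activating list 3 of 10 higher and 2 lower, with a median of 0.65.

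Most granule genes were lower or close, while Gzma was higher. Of 20 tested, 7 were past 2-fold lower and none higher, with a median of -0.19. Gzmb was at 2791 (2676 to 2910) against 3004 (2778 to 3243) CPM, a ratio of 0.929 (0.851 to 1.02), and Gzma at 6542 against 4111, a ratio of 1.59 (1.48 to 1.71). Without cells that had a Trac, Trbc1 or Trbc2 UMI the log2 ratio of Gzma went from 0.67 to 7.83. That setting leaves out 8 of the 13 control NK cells and 63 of the 101 serine/glycine-free ones. Prf1 was at 896 against 2931, a ratio of 0.306 (0.274 to 0.341), and its log2 ratio went from -1.70 to -0.52 without the tenth of cells with the most UMIs. Gzmd was at 1144 against 19269.5, Gzme at 452 against 8571, Gzmf at 1648 against 23495 and Gzmg at 746 against 18723, with the concentration in 3 cells described above. Without the tenth of cells with the most UMIs in each group, Gzmf reversed to a log2 ratio of 7.05 in the serine/glycine-free direction, while Gzme was at -3.11. Over 15 other settings Gzmd stayed at or below -3.02 and Gzmg at or below -2.71. Ctsg, the neighbour of the granzyme genes, was at 0 against 1484 CPM, with 96.3% of the control UMIs in 1 cell, and Fcrl6 at 34.2 against 1323, with 70.5% in 1 cell; without the tenth of cells with the most UMIs their log2 ratios went from -8.22 to 0 and from -5.08 to -1.66.

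Counts for the metabolic lists stand beside the 12.6% of all genes tested that were past 2-fold, and no list was tested against that share. None of 14 serine, glycine and one-carbon genes was past 2-fold, and their median was -0.21: Phgdh was at 122 against 161 CPM, a ratio of 0.756 (0.508 to 1.15), Psat1 at 55.7 against 68.9 and Shmt2 at 58.2 against 64.3. Gldc had no UMI in either. Of 14 amino acid stress and transport genes, Asns (asparagine synthetase) was lower, at 17.7 against 82.7, a ratio of 0.214 (0.0987 to 0.456), and Ddit4 was past 2-fold higher. Of 15 glycolysis genes 13 were higher and 1 was past 2-fold lower, with a median of 0.23. Ldha was at 1628 against 1639.9. With each cell weighing equally the glycolysis median went to -0.42 and the log2 ratio of Ldha from -0.01 to -0.67. None of 16 oxidative phosphorylation genes was past 2-fold. Proliferation genes were lower in the serine/glycine-free cells, with 18 of 20 below the control level, 6 past 2-fold, and a median of -0.55. Their median sum per cell was 5.91 against 38.5 UMIs per 10000, and Mki67 or Top2a had a UMI in 33 of 101 and 8 of 13 cells, the control cells being deeper. Of the proliferation UMIs of the control NK cells, 1 cell held 40.9% and 3 cells held 60.2%. Of 8 genes known from hypoxia, 2 were past 2-fold higher and 1 (Hif1a) lower, with a median of 0.63. This median turned to -0.16 without cells that had a Trac, Trbc1 or Trbc2 UMI, a setting that leaves out 8 of the 13 control cells. Ndrg1 was at 237 against 23.0 CPM, with 40.6% in 1 cell, and Bnip3 at 167 against 41.3. Cells with RNA of other types were 23 of 101 and 7 of 13. Without them 1278 genes were past 2-fold, the medians were 1.73 for type I interferon genes, 4.60 for chemokines, 2.27 for immediate early genes, -0.05 for granule genes and -0.28 for proliferation, and the log2 ratios were 4.29 for Ifng, 4.66 for Cd7 and -2.29 for Klrg1. In this setting the log2 ratio of Mki67 went from -0.73 to -0.08 and that of Top2a from -0.60 to 1.11.

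The remaining genes with the largest differences between the diets were each found in 30 serine/glycine-free cells or fewer. Cxcl10 was at 241 CPM in 25 serine/glycine-free cells against 32.2 in control NK cells, a ratio of 7.48 (3.56 to 18.9). Hmga2 (a chromatin protein of growing cells) was at 111 CPM in 9 serine/glycine-free cells against 4.59, and Ifih1 (MDA5, a sensor of viral RNA) was at 157 in 30 cells against 13.8. Lower were Ccl6, at 17.7 against 276 CPM, with a log2 ratio that went from -3.63 to 0 without the cells that held RNA of other types, and Mgl2 (a lectin known from macrophages and dendritic cells), at 6.33 against 207. Without the cells that held RNA of other types Mgl2 turned to a log2 ratio of 0.51. Tmsb15a was at 16.5 against 193 and Cd55 (which protects cells from complement) at 41.8 against 367, and both turned, to 0.98 and 0.19, without the tenth of cells with the most UMIs.

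In the control library the NK cells could be set beside 63 CD8 T cells, with a median of 3369 UMIs. Of 5631 genes tested 1147, or 20.4%, differed by at least 2-fold, 7.19% higher and 13.2% lower in NK cells, with a median of -0.16. Granule genes were again mostly higher, 11 of 20 past 2-fold higher and 2 lower, with a median of 2.07. Type I interferon genes lay below the CD8 level, with 14 of 16 past 2-fold lower and a median of -2.28, where the serine/glycine-free library had 7 of 15 past 2-fold higher. Of 5 secreted chemokines 4 were past 2-fold lower, Ccl4 at 64.3 against 927 CPM among them, and Ifng was at 9.19 against 321. Proliferation genes had a median of -0.15, with none past 2-fold higher and 1 lower. Checkpoint genes were split, with 4 of 14 past 2-fold higher and 4 lower, and a median of -0.40. Their list summed to 1052 CPM in control NK cells and 1484 in control CD8 T cells.

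**Figure D5:**
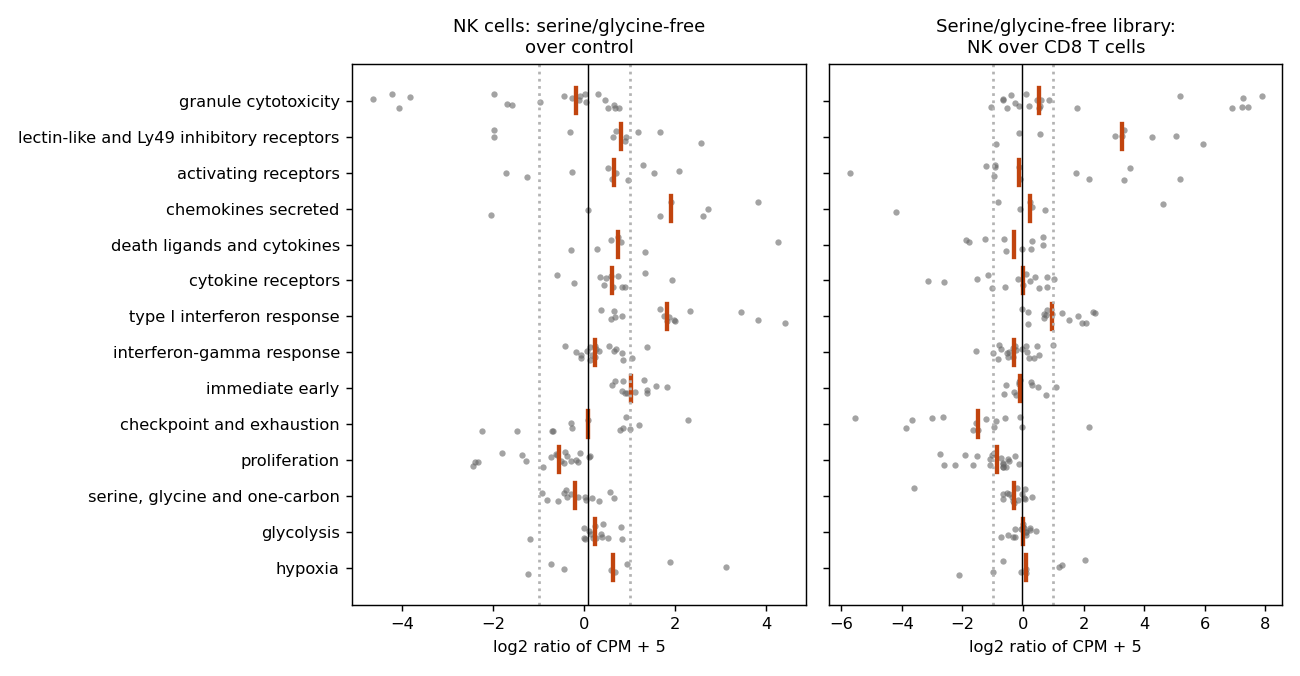
Log2 ratio of CPM + 5 of each tested gene (grey) in 14 lists, with the list median (orange bar), the median of all tested genes (solid line) and the 2-fold bounds (dotted), for NK cells of the serine/glycine-free over the control library (left) and NK over CD8 T cells in the serine/glycine-free library (right). On the left the type I interferon, chemokine and immediate early medians lie at 1.82, 1.90 and 1.03 and proliferation at -0.55; on the right the inhibitory receptor median lies at 3.25 and the checkpoint median at -1.48.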

How the data were processed

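RNA and receptor libraries were read from each of 2 samples, 1 for each diet. The deposited matrices give raw UMI counts for every gene in every barcode. The authors used Cell Ranger 7.1.0 per the file headers; version 2.2.2 and the build mm10 stand in the submitters' processing notes. The deposited contig tables supplied the barcodes with an assembled receptor. The labels' extraction text describes human heart tissue, but organism, design and gene symbols are those of mouse tumours.

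UMI counts were summed over the cells of a group and scaled to CPM without T cell receptor and immunoglobulin genes in the total. Levels were compared as log2 ratios with a pseudocount of 5 CPM, over genes that averaged 20 CPM or more, leaving out the genes that made the groups. Past 2-fold means a log2 ratio of at least 1 or at most -1; no test was possible with 1 library for each diet. The steps were tested on simulated data. No doublet caller was run, and cells with RNA of other cell types were instead left out as an alternative. Named genes were the 10 highest and 10 lowest log2 ratios of each comparison among genes averaging 50 CPM or more with 30 or more UMIs in a group, plus list genes with at least 10 CPM or at 0. The members and the gene lists were chosen with earlier results of these data known. Shares of cells were thinned to 1000 UMIs per cell; 2 CD8 T cells and 14 macrophages of the serine/glycine-free library were shallower and left out. Promoter sequences and gene positions are from RefSeq, GRCm38.p6. Alternatives changed the member rule, the cell filter, the pseudocount, the CPM minimum, the weighting of cells and the scaling. Python 3.11.15, numpy 2.4.6, scipy 1.17.1, pandas 2.3.3 and matplotlib 3.10.9 were used.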

Additional observations from a re-analysis of the deposited data

How the results depend on the processing

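No paired analysis was possible because each diet has 1 library and the labels carry no replicate number. The ratio of NK cell shares kept its direction under every setting tried for it. Of 704 genes past 2-fold between the diets, the count became 1731 without cells that had a Trac, Trbc1 or Trbc2 UMI, 1278 without cells holding a UMI of 7 genes of other cell types (a setting chosen after seeing the data), 2403 with no CPM minimum, 125 at a minimum of 100 CPM, and 1145 with each cell weighing equally. For NK cells over CD8 T cells (601) it became 1067, 1526 and 117, and over the cells left out for a Cd3 UMI or contig (398) it became 915, 1874 and 39, without Trac or Trbc cells, with no minimum and at 100 CPM in that order. The settings without Trac or Trbc cells and without cells of other types have fewer cells, and those on the CPM minimum test more or fewer genes. Of the 13 control NK cells, the setting without Trac or Trbc cells leaves out 8 and the setting without cells of other types 7. The share of NK cells with Gzmb went from 69.3% to 84.2% without thinning.

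Some log2 ratios reversed in settings that left out cells, and the cause was not tested. Between the diets Mgl2 turned to 0.89 with at least 2 Ncr1 or Klrb1c UMIs, 0.51 without cells of other types and 0.36 with at least 3 of 10 further NK genes. Without the tenth of cells with the most UMIs, Gzmf turned to 7.05, Tmsb15a to 0.98 and Cd55 to 0.19. Over CD8 T cells Gzmd turned to -0.96 without Trac or Trbc cells. Over the left-out cells H2-Ab1 turned to -0.78 without cells of other types. There, Gzmg, Gzmf and Gzme turned to 0.61, 2.46 and 2.82 without the top granzyme cell of each group, and to 0.82, 2.22 and 2.86 without the tenth of cells with the most UMIs. The 13 control cells limit every comparison between the diets, and all intervals leave out the spread between animals.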
